A study of Mus musculus with 28 samples.

Results

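The T-cell receptor alpha and delta locus of the mouse was examined for DNA copy number in 24 tumours, as 202 gene segments of the 47038 autosomal genes in the annotation. The gene segments were chosen by symbol (Trav, Traj, Trac, Trdv, Trdd, Trdj and Trdc) and by position, on chromosome 14 from 52427967 to 54224198 of GRCm38, a span of 1796 kb. They comprised 130 Trav and 6 Trdv variable (V) segments, 2 Trdd diversity (D) segments, 2 Trdj and 60 Traj joining (J) segments, and the constant (C) segments Trdc and Trac. Along the chromosome the locus began with Trav1 and ran through the V segments to Trdd1, Trdd2, Trdj1, Trdj2, Trdc and Trdv5, then through Traj61 to Traj1, and ended with Trac.

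In developing thymocytes, the RAG recombinase cuts beside a V and a J segment, the ends are joined, and the DNA between them is usually removed from the chromosome. The delta D, J and C segments lie between the alpha V and alpha J segments, so that joining a Trav to a Traj segment takes out the delta segments, while Trac, behind the last Traj, is kept. Repeated rounds of joining on the same allele use V segments further towards the 5′ end and J segments further towards the 3′ end. Cells that never become T cells, such as those of connective tissue, keep the locus as inherited.

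The mice carried an altered p53 allele opposite a null allele, on a mixed BALB/C and C57BL6 background. AD/- animals had an allele for dimeric p53 and RP/- animals an allele for monomeric p53, and all tumours were collected when the animals reached their end point. Thymic lymphomas numbered 7 per genotype and sarcomas 5 per genotype, and a tumour counts as 1 replicate. A further 4 ear samples labelled as normal controls were not analysed here, although AD thymic lymphoma 1, RP thymic lymphoma 4, AD sarcoma 5 and RP sarcoma 3 came from animals with a sequenced ear. The series asks how the genomes of tumours with dimeric p53 compare with those of tumours with monomeric p53.

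Exome capture DNA was summarised by the authors as copy segments, each with a mean log2 ratio of tumour over a comparison DNA. A value of 0 is the level of the comparison DNA and -1 is that of 1 copy against 2, and normal cells in a tumour pull values towards 0. The comparison DNA is not given in the sources used here and the read depth is unknown. A gene segment was given the overlap-weighted mean of its copy segments, or that of the closest copy segment where none covered it, and was called lost at -0.3 or below. Only DNA was measured, so the thymic or connective tissue labels could not be checked against the expression of marker genes.

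Each tumour had between 52 and 499 autosomal copy segments, with AD thymic lymphomas 6 and 7 highest at 343 and 499, against 100 to 239 in the other 12 thymic lymphomas. Autosomal markers, the capture intervals behind the segments, totalled 205073 to 205076 in sarcomas, 204917 to 204922 in the RP lymphomas and 204845 to 204849 in the AD lymphomas. On chromosome 14 they totalled 8451 to 8452, 8410 to 8414 and 8390 to 8393 in the same order, and the part of this in the group differences was not tested. From position 53324675 to the end of the chromosome, which takes in the V segments nearest to Trdd1 and all delta and J segments, AD thymic lymphoma 5, RP thymic lymphoma 3 and RP sarcomas 1, 2 and 5 each had 4127 markers. Before that position, where all d copies and most n copies lie, they had 4266, 4286 and 4324 in AD thymic lymphoma 5, RP thymic lymphoma 3 and each of the 3 sarcomas, so that the totals of these 5 tumours differed only there. The other tumours have no segment end at that marker. Of 100 copy segment ends inside the locus, 62 lay 1 base before the annotated start of a gene segment.

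All 14 thymic lymphomas had a deletion that took in the delta D, J and C segments. Lost in all 14 were 34 gene segments, which formed 1 unbroken run from Trdv2-1 to Traj39 (53946073 to 54180024, 234 kb), where 0.138% of autosomal genes were lost in all 14. The run held Trdv2-1, Trdv2-2, Trav23, Trdv3, Trdv4, all Trdd, Trdj and Trdc, Trdv5, and the 23 J segments Traj61 to Traj39. Of these, the 13 from Trdv4 to Traj56 (54075004 to 54159325, 84.3 kb) stood at -2 or below in every thymic lymphoma, a level that 0.0319% of autosomal genes, or 15 genes, reached. RP thymic lymphoma 3 was closest to that limit, at -2.003, followed by RP thymic lymphoma 6 at -2.03. In 66 gene segments, every thymic lymphoma was below every sarcoma, against a background of 2.37%. Without AD thymic lymphoma 2, the run lost in all the others held 54 gene segments, Trav5-4 to Traj38. Without RP thymic lymphoma 4, every thymic lymphoma was below every sarcoma in 100 gene segments.

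**Figure D1:**
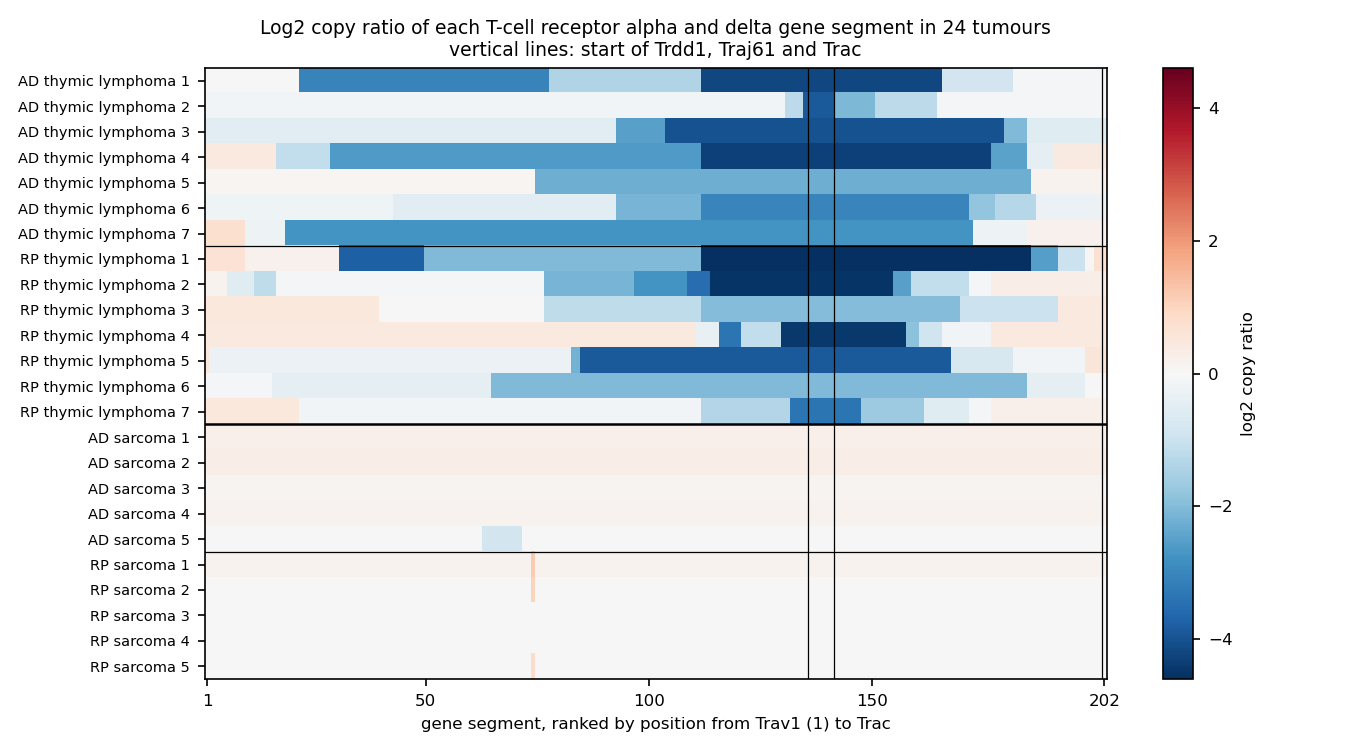
Log2 copy ratio (colour) of the 202 gene segments, ranked by position from Trav1 to Trac (horizontal axis), in each of 24 tumours (rows, 14 thymic lymphomas above 10 sarcomas). Vertical lines mark the starts of Trdd1, Traj61 and Trac; the blue stretch around Trdd1 is present in all 14 thymic lymphomas, and the sarcomas are flat apart from 1 short loss in AD sarcoma 5 and short gains in RP sarcomas 1, 2 and 5.

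Trdc, the constant segment of the delta chain (54142851 to 54146108), stood lowest in both genotypes. In AD thymic lymphomas its log2 ratio ran from -4.30 through a median of -3.88 to -2.26, and in RP thymic lymphomas from -4.585 through -3.88 to -2.003. The sarcomas lay between -0.03 and 0.30, so that the tumour types did not overlap. Trdv4, Trdd1, Trdd2, Trdj1, Trdj2 and Trdv5 shared the copy segment of Trdc in every tumour and so had the same values. Trdv5, which lies behind Trdc and joins by inversion, was therefore not distinguished from the segments that join by deletion. The mean over thymic lymphomas was -3.52 ± 0.94 (SD, n = 14) and over sarcomas 0.10 ± 0.11 (SD, n = 10), a difference of -3.61 (SE 0.25; permutation test within genotype, adjusted p = 0.000187, lower in 14 of 14).

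The other delta V segments lie before Trdv4. Trdv2-2 and Trdv3 had a mean of -3.32 in thymic lymphomas and Trdv2-1 of -3.18, and each was lost in 14 of 14. Trdv1, further towards the 5′ end, had a mean of -2.87 and was lost in 13 of 14, the exception being AD thymic lymphoma 2 at -0.13. Among alpha V segments the lowest mean was that of Trav23, at -3.32, which lies between Trdv2-2 and Trdv3. Among alpha J segments it was that of Traj61 to Traj56, at -3.39.

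The number of thymic lymphomas with a loss broadly fell with distance from Trdd1 among the V segments. Of the 135 V segments before Trdd1, the 45 nearest to it had a mean of -2.63 ± 1.22 relative to chromosome 14 outside the locus in thymic lymphomas (SD, n = 14). The middle 45 had -1.25 ± 1.203 and the 45 nearest the 5′ end -0.61 ± 0.79. The ranges over tumours overlapped between these stretches, since some tumours kept most V segments and others lost nearly all. Trav1, the outermost V segment, was lost in 1 thymic lymphoma (AD thymic lymphoma 3, at -0.54), where chromosome 14 outside the locus stood at -0.44. Moving inwards, Trav12d-1 was lost in 5 of 14, Trav13d-3 in 7, Trav6n-7 in 8, Trav13n-3 in 10, Trav6-6 in 11, Trav4-4-dv10 in 12 and Trav5-4 in 13. By stretch from the 5′ end, such counts ran from 1 to 7, 7 to 11 and 11 to 14. Relative to chromosome 14 outside the locus, they ran from 0 to 7, 7 to 9 and 9 to 14.

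Many V segments of the mouse exist as near-identical copies, and reads from one copy can be counted for another, so that their separate levels are uncertain. The series marked d in its symbols (40 segments, 52683964 to 53082522) had a mean relative to chromosome 14 of -0.763 ± 1.002 in thymic lymphomas (SD, n = 14). The series marked n (34 segments, 53091346 to 53375278) had -1.16 ± 1.24, and the 62 V segments with neither mark had -2.19 ± 1.05. The unmarked segments Trav1 to Trav6-2 lie outermost. Of the rest, the d series lies furthest from Trdd1, the n series next and the unmarked segments nearest, so that series and position cannot be told apart. The same means in sarcomas were 0.01 ± 0.02, -0.01 ± 0.07 and 0.00 ± 0.02 (SD, n = 10).

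The J segments formed a ladder in the opposite direction. Traj61 to Traj39 were lost in 14 of 14 thymic lymphomas, Traj38 in 13, Traj37 to Traj32 in 12, Traj31 in 10 and Traj30 to Traj22 in 9. Traj21 to Traj18 were lost in 7, Traj17 in 6, Traj16 to Traj13 in 5, Traj12 in 4, Traj11 to Traj5 in 3 and Traj4 to Traj1 in 1. No J segment was lost in more thymic lymphomas than a J segment nearer to Trdc. After subtraction of chromosome 14 outside the locus the steps stayed in the same order, with Traj37 to Traj32 at 13, Traj31 at 11, Traj18 at 8, Traj12 at 5 and Traj2 and Traj1 at 1. The first 30 J segments, Traj61 onwards, had a mean of -3.06 ± 1.12 relative to chromosome 14 and the last 30 of -0.84 ± 0.92 (SD, n = 14).

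**Figure D2:**
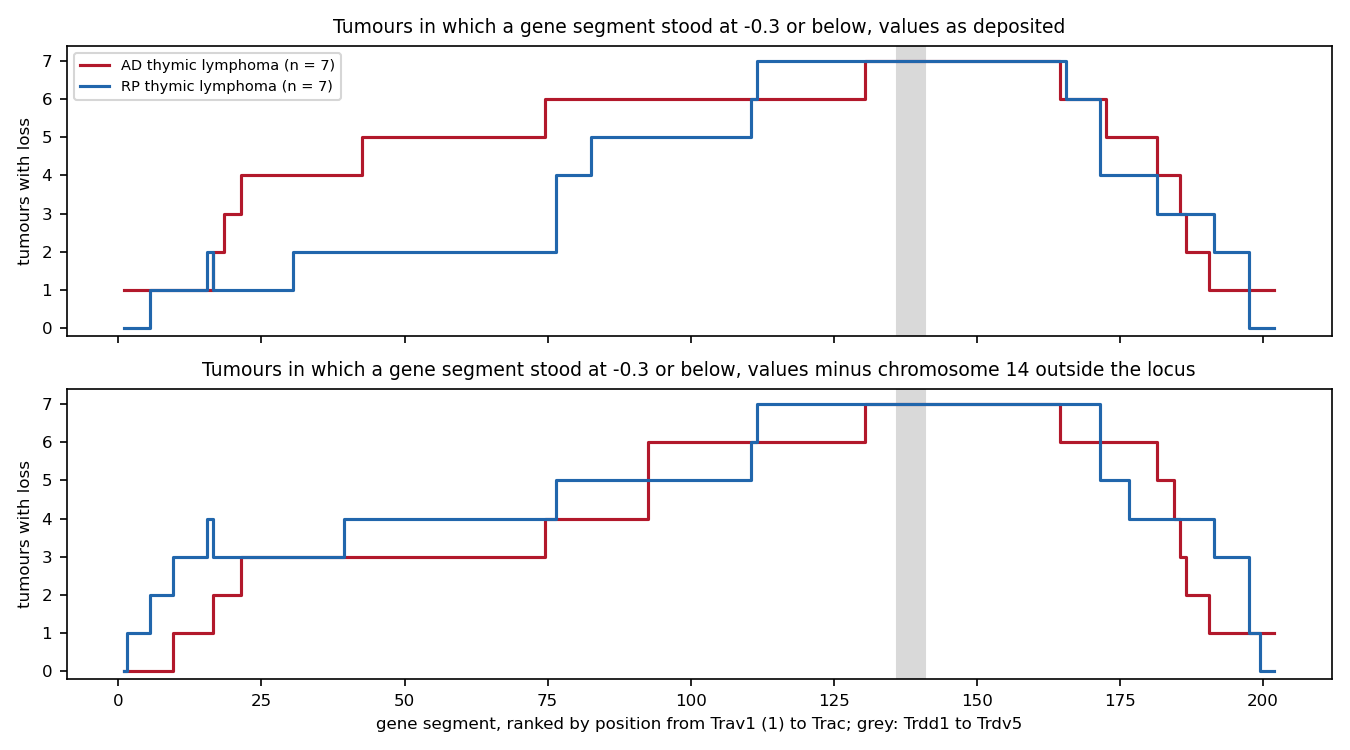
Number of AD (red, n = 7) and RP (blue, n = 7) thymic lymphomas in which each gene segment, ranked by position, stood at -0.3 or below, with values as deposited (top) and after subtraction of chromosome 14 outside the locus (bottom). The grey band marks Trdd1 to Trdv5, where all 7 tumours of each genotype had a loss; counts fall away on both sides of it.

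Trac, the constant segment that every alpha chain uses (54220521 to 54224198), was called lost in 1 of 14 thymic lymphomas. Its log2 ratio ran from -0.55 through -0.06 to 0.42 in AD thymic lymphomas and from -0.01 through 0.45 to 0.70 in RP thymic lymphomas, overlapping the sarcomas at -0.03 to 0.30. The call came from AD thymic lymphoma 3, at -0.55, where Trac stood at -0.11 relative to chromosome 14 outside the locus. Relative to chromosome 14 it was lost only in AD thymic lymphoma 7, at -0.51, where the copy segment of Traj18 to Trac stood at 0.21 against 0.71 for the rest of the chromosome. The mean relative to chromosome 14 was -0.00 ± 0.15 in thymic lymphomas, against -3.70 ± 1.02 for Trdc (SD, n = 14). The nearest protein-coding genes outside the locus are the olfactory receptor Olfr1510 (52409889 to 52410927) and Dad1 (54235485 to 54253929), a subunit of the oligosaccharyltransferase. Dad1 had the same mean as Trac in thymic lymphomas, 0.18 ± 0.35 (SD, n = 14).

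**Figure D3:**
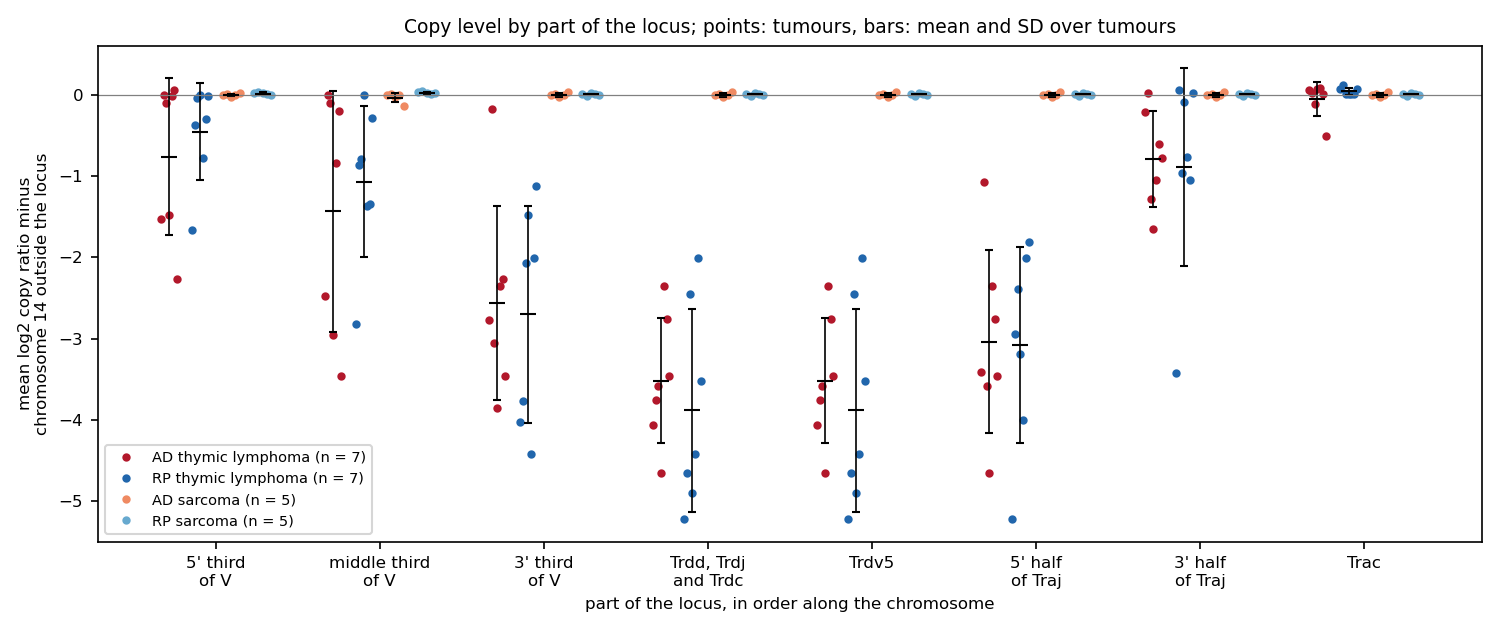
Mean log2 copy ratio of each stretch of the locus minus that of chromosome 14 outside the locus (vertical axis), by stretch in order along the chromosome (45, 45 and 45 V segments, Trdd to Trdc, Trdv5, the first and last 30 Traj, and Trac). Points are tumours, coloured by group, and bars give the mean and SD; the thymic lymphomas lie lowest from Trdd to Trdv5, at -3.70 ± 1.02, and return to -0.00 ± 0.15 at Trac.

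The deletion was staircase-shaped in most thymic lymphomas. Levels were counted by sorting the copy segment means inside the locus and splitting them where neighbours differed by over 0.3. AD thymic lymphomas had 2 to 5 levels and RP thymic lymphomas 3 to 7. These counts include the level of the copy segments that reach in from outside the locus. The 2 levels of AD thymic lymphoma 5, for example, were -2.26 in the deletion and 0.13 on both sides of it. The lowest level corresponded to between 4.17% of the comparison DNA, in RP thymic lymphoma 1, and 25.0%, in RP thymic lymphoma 3. In 4 of the 14, a gene segment of the locus had the lowest value of all autosomal genes, ties included.

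**Figure D4:**
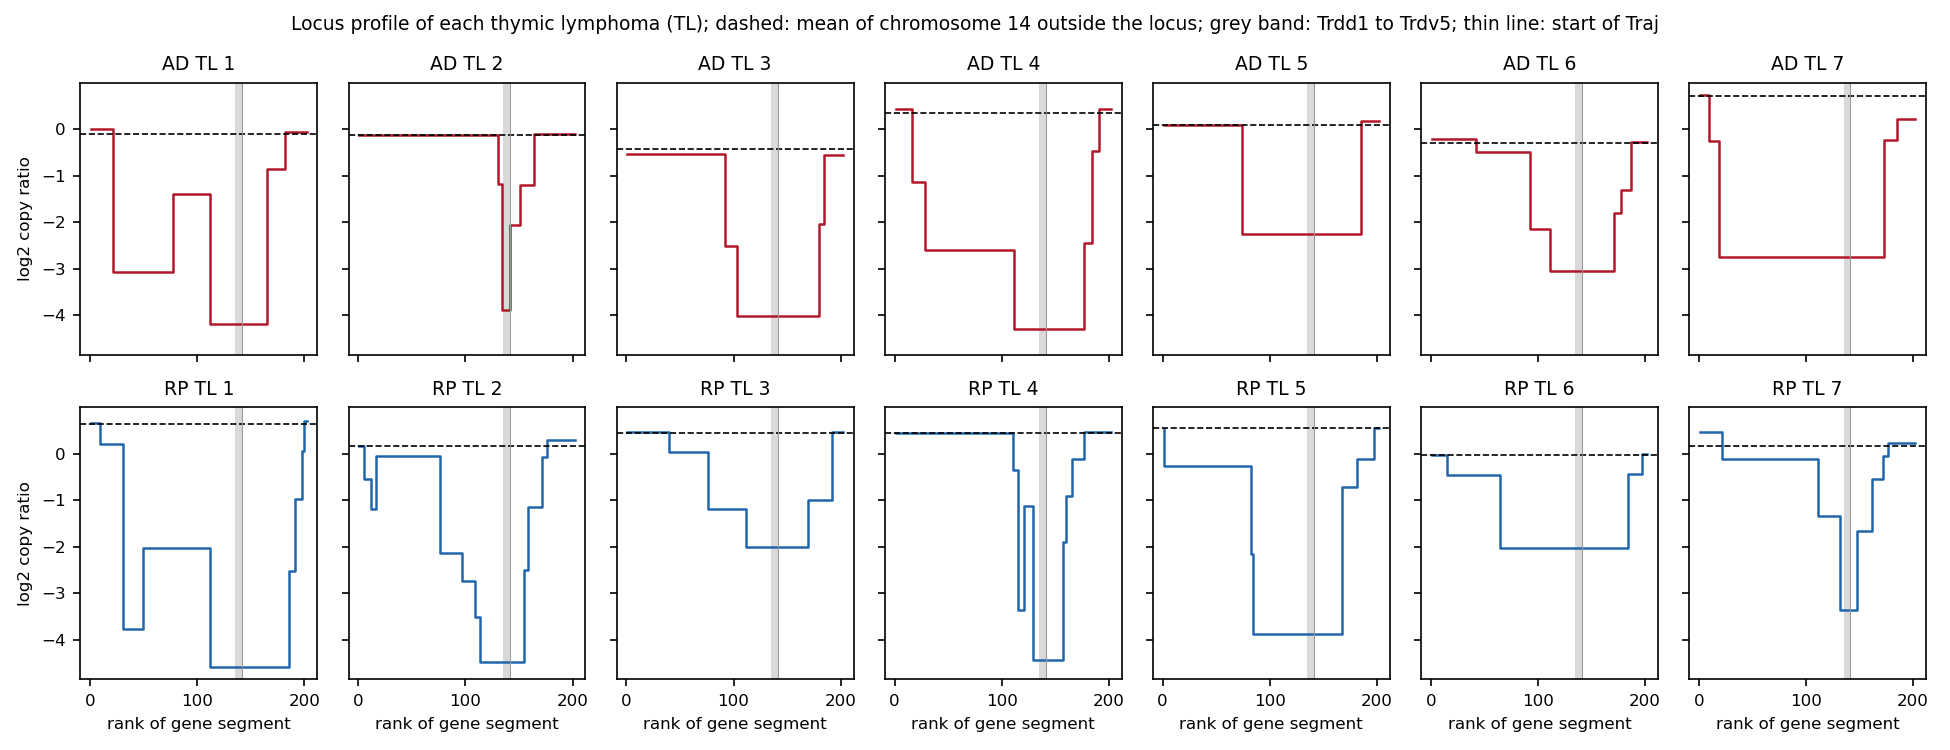
Log2 copy ratio (vertical axis) of the 202 gene segments, ranked by position (horizontal axis), in each AD (red) and RP (blue) thymic lymphoma. The dashed line is the mean of chromosome 14 outside the locus, and the grey band marks Trdd1 to Trdv5; the lowest level of each tumour, from -4.585 to -2.003, includes that band in all 14 panels.

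AD thymic lymphoma 2 had the narrowest deletion. It lost 34 gene segments, Trdv2-1 to Traj39, where 0.446% of its autosomal genes were lost, and was the tumour that set the limits of the run lost in all 14. From the 5′ side its levels were -1.19 over Trdv2-1 to Trdv3, -3.88 over Trdv4 to Trdv5, -2.05 over Traj61 to Traj53 and -1.21 over Traj52 to Traj39. The 130 V segments before Trdv2-1 stood at -0.13, as did chromosome 14 outside the locus.

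AD thymic lymphoma 5, RP thymic lymphoma 6 and AD thymic lymphoma 7 had the simplest shapes, with 1 broad deep level. AD thymic lymphoma 5 lost 111 gene segments (background 11.3%) in a single copy segment at -2.26 from Trav6n-7 to Traj18, with 0.08 before it and 0.18 behind it. RP thymic lymphoma 6 lost 182 (background 11.5%), at -2.03 from Trav9n-3 to Traj19 and with shoulders of -0.46 and -0.43 that reached out to Trav9d-1 and Traj5. AD thymic lymphoma 7 lost 154 (background 29.4%) at -2.74 from Trav6d-6 to Traj31. Its shoulders of -0.25 and -0.23 lay 0.96 below the chromosome, which stood at 0.71 outside the locus, and relative to the chromosome it lost 193 gene segments (background 2.40%).

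AD thymic lymphomas 3, 4 and 6 had deletions that deepened in steps from both sides. AD thymic lymphoma 3 lost all 202 gene segments (background 14.9%), but 92 of them stood at -0.54 and 18 at -0.55, near the rest of the chromosome at -0.44. Relative to the chromosome it lost 92, Trav6-6 to Traj19 (background 4.92%), with its lowest level of -4.02 from Trav12-2 to Traj24. AD thymic lymphoma 4 lost 174, Trav6d-5 to Traj13 (background 24.7%), at -1.14, then -2.60, then -4.30 from Trav5-4 to Traj27, rising through -2.45 and -0.46. AD thymic lymphoma 6 lost 144 (background 18.4%), or 94 relative to the chromosome (background 2.30%), and reached -3.05 from Trav5-4 to Traj32.

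RP thymic lymphomas 3, 5 and 7 also deepened in steps from both sides. RP thymic lymphoma 3 lost 115 (background 0.682%), at -1.18 from Trav13n-3, -2.003 from Trav5-4 to Traj34 and -0.996 from Traj33 to Traj12. Relative to its chromosome, at 0.45, it lost 152 (background 0.795%). RP thymic lymphoma 5 lost 99 (background 27.9%), with -3.88 from Trav6-3 to Traj36. Relative to its chromosome, at 0.54, it lost 196 (background 0.916%), which adds the 81 V segments from Trav2 to Trav15n-3 at -0.26 and the 16 J segments from Traj21 to Traj5 at -0.11. RP thymic lymphoma 7 lost 60, Trav5-4 to Traj32, or 29.7%, a share below its background of 36.1%. Relative to its chromosome, at 0.17, it also lost 60, a count for which no background share was taken. The 90 V segments from Trav12d-1 to Trav4-4-dv10 stood at -0.11, or -0.28 relative to the chromosome, against 0.47 before them. Only the 16 gene segments from Trdv2-2 to Traj56 stood at the lowest level of this tumour, -3.36.

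In 4 thymic lymphomas the copy level rose again, by 0.3 or more, before reaching the delta segments, so that V segments nearer the 5′ end were lower than some nearer Trdd1. AD thymic lymphoma 1 lost 160 (background 5.71%), with Trav12d-1 to Trav13n-3 at -3.08, Trav8n-2 to Trav4-4-dv10 at -1.39 and Trav5-4 to Traj38 at -4.18. RP thymic lymphoma 1 lost 167 (background 21.9%), or 190 relative to the chromosome (background 1.40%), with Trav9d-3 to Trav7n-4 at -3.76, Trav9n-1 to Trav4-4-dv10 at -2.04 and Trav5-4 to Traj18 at -4.585. Both tumours thus had a deep loss among d or n copies that was separated from the deep loss around Trdc by a stretch that ended at the same place. RP thymic lymphoma 4 lost 55, or 27.2%, the same share as its background of 27.2%, and 66 relative to the chromosome (background 0.438%). Its levels included -3.36 over Trav8-2 to Trav15-3, -1.13 over Trav3-4 to Trdv1 and -4.44 over Trav22 to Traj46. RP thymic lymphoma 2 lost 106 (background 43.8%), with Trav7d-3 to Trav9d-1 at -1.18, then -0.04 over 60 gene segments, then 4 levels down to -4.49 from Trav7-6 to Traj49. Behind Trdd1, no thymic lymphoma stepped down again by 0.3 or more.

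**Figure D5:**
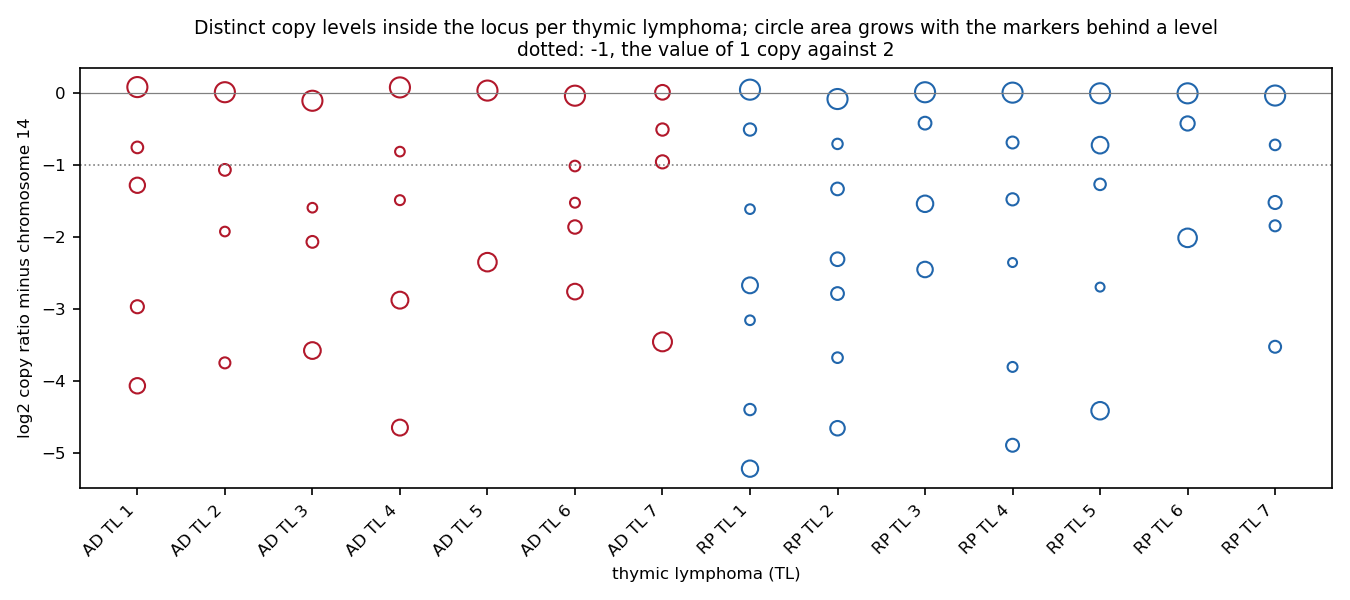
Distinct copy levels inside the locus in each thymic lymphoma (horizontal axis), as log2 copy ratio minus chromosome 14 outside the locus (vertical axis); each circle is 1 level, and its area grows with the number of markers behind it. The dotted line is -1, the value of 1 copy against 2; AD thymic lymphoma 5 has 2 levels, and RP thymic lymphomas 1 and 2 have 7.

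The steps between copy segments lay at 60 distinct places in the thymic lymphomas. Of these, 47 were seen in 1 tumour and 13 in at least 2. The gap between Trav4-4-dv10 and Trav5-4 (53683898 to 53704006) was a downward step in AD thymic lymphomas 1, 4 and 6 and RP thymic lymphoma 1, by -2.79 to -0.90, and RP thymic lymphomas 3 and 7 stepped down 1 marker further on, before 53704223. On the J side, 4 tumours stepped up between Traj27 and Traj26, 4 between Traj19 and Traj18, 3 between Traj32 and Traj31 and 3 between Traj5 and Traj4. Steps can be placed no more finely than the spacing of the markers, so that tumours sharing a step need not share a break.

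The sarcomas carried the locus at the level of their chromosome. The mean of all 202 gene segments relative to chromosome 14 was 0.00 ± 0.01 (SD, n = 10), against -1.69 ± 0.89 in thymic lymphomas (SD, n = 14). The exceptions were copy segments of 2 markers each. AD sarcoma 5 stood at -0.835 from 53267962 to 53294595, which gave 9 n copies (Trav5n-2 to Trav3n-3) a loss, 2 of which it overlapped and 7 of which took it as the nearest segment. These 9 of the 202 compare with 7.46% of autosomal genes lost in at least 1 sarcoma. RP sarcomas 1, 2 and 5 stood at 1.21, 1.04 and 0.85 from 53312903 to 53313131, over Trav5n-4.

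Thymic lymphomas were compared with sarcomas by permutation within genotype, with adjustment over all 47038 autosomal genes. Of the 202 gene segments, 140 were lower in thymic lymphomas and 0 were higher, with a median difference of -1.35, against 35.1% of all autosomal genes lower and a median of -0.04. With each value taken relative to its own chromosome, 80 gene segments were lower, against 0.327% of all genes. All of those 80 were among the 140. By stretch, the test called 3 of the 45 V segments nearest the 5′ end, 43 of the middle 45 and 45 of the 45 nearest Trdd1. It called 5 of 5 Trdd, Trdj and Trdc segments, Trdv5, 30 of the first 30 J segments, 13 of the last 30, and not Trac (difference 0.08, SE 0.10, adjusted p = 0.626). Relative to their own chromosome, the V stretches had 0, 0 and 43 called in the same order. On that scale 30 of the first 30 J segments and 1 of the last 30 were called, and the delta segments and Trac were unchanged. The called gene segments ran from Trav13d-3 to Traj19, and relative to their own chromosome from Trav6-6 to Traj31.

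AD and RP thymic lymphomas were compared by exact permutation over tumours, with the same adjustment. None of the 202 gene segments passed (smallest adjusted p = 0.477), as none of all autosomal genes did (0.0%), and limma also called 0. At an unadjusted p under 0.05 there were 15 gene segments by the permutation test, where 8.50% of all genes had such a p. By limma there were 21, where 3996 of all 47038 genes had such a p. The permutation count was below its background share and the limma count above it. Of the 15, 12 were d copies, Trav6d-6 to Trav12d-2, with AD minus RP differences of -1.35 to -0.79, or -1.04 to -0.47 relative to chromosome 14. Trav12d-2, for example, had a mean of -1.32 in AD and 0.04 in RP thymic lymphomas (SE of the difference 0.55). The other 3 were Traj2, Traj1 and Trac, with -0.03 in AD and 0.38 in RP tumours, a difference of -0.41 that became -0.10 relative to chromosome 14. Among the 15, neighbouring gene segments often shared all their copy segments, and with them their values, so that they are not separate results.

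The AD minus RP difference of Trdc, which lay inside the deletion of every thymic lymphoma, was 0.05 (SE 0.52; exact permutation test, adjusted p = 0.974). Relative to chromosome 14 it was 0.37, with means of -3.52 ± 0.77 in AD and -3.88 ± 1.25 in RP thymic lymphomas (SD, n = 7 each; exact permutation test, adjusted p = 0.952). For Trdv1 the difference was -0.17 (SE 0.79), or 0.14 relative to chromosome 14. For Trav1, the outermost V segment, it was -0.33 (SE 0.18), or -0.02 relative to chromosome 14. AD thymic lymphomas lost 140 ± 54.3 gene segments (34, median 154, 202) and RP thymic lymphomas 112 ± 48.5 (55, median 106, 182; SD, n = 7 each), and the ranges overlapped. The share of all autosomal genes lost ran the other way at both ends, from 0.446 to 29.4% in AD and from 0.682 to 43.8% in RP thymic lymphomas. The lost length was 1123 ± 523 kb in AD and 854 ± 340 kb in RP thymic lymphomas (SD, n = 7 each), and they had 4.14 and 5.29 levels on average. Relative to chromosome 14 the order of the counts turned, to 123 gene segments on average in AD against 136 in RP tumours. The share of all genes on that scale was taken only for tumours whose count changed, as given above.

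Between AD and RP sarcomas, none of the 202 gene segments passed the exact permutation test (0 called; background 0.0%; 0 with an unadjusted p under 0.05; smallest adjusted p = 0.546). limma called 0 as well, with 193 at an unadjusted p under 0.05 against 14.3% of all genes. In AD sarcomas 1 to 4 and RP sarcomas 3 and 4, 1 copy segment covered all 202, so that the 193 are not separate results. The AD minus RP difference of Trdc was 0.14 (SE 0.06), and it was -0.00256 relative to chromosome 14, which stood at 0.17 to 0.29 outside the locus in AD sarcomas 1 to 4. The change of the genotype difference with tumour type, tested as a limma interaction, was called for 0 of the 202 (smallest adjusted p = 0.605), against 0.113% of all genes. At an unadjusted p under 0.05 there were 20, against 8.03% of all genes.

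The other antigen receptor loci were scored in the same tumours. In thymic lymphomas, 62.3 ± 25.5% of the alpha and delta gene segments were lost, 74.7 ± 23.6% of 53 T-cell receptor beta genes and 70.5 ± 41.2% of 15 T-cell receptor gamma genes (SD, n = 14). These shares used values as deposited, not relative to the gene's own chromosome. In AD thymic lymphomas 5 and 7 and RP thymic lymphoma 6, all 15 gamma genes stood at 1 shallow value (-0.65, -0.31 and -0.59). Xrcc4, on chromosome 13 like the gamma locus, was lost in 10 of 14 thymic lymphomas. Of 216 immunoglobulin heavy chain genes, which B cells rearrange, 22.9 ± 35.7% were lost, with a median of 5.56%. The lowest heavy chain value of each thymic lymphoma ran from -4.11 through a median of -1.34 to 0.12. In AD thymic lymphoma 6 and RP thymic lymphoma 2, 95.4% of these genes were lost, at shallow means of -0.38 and -0.36. Of all autosomal genes, 19.57 ± 12.98% were lost in the same tumours (SD, n = 14). In sarcomas the shares were 0.446, 2.26, 0 and 10% in the same order, against 0.841% of all autosomal genes. Each of the 3 shares above 0 came from 1 tumour and was 0 without it: AD sarcoma 5 for alpha and delta, RP sarcoma 3 for beta and AD sarcoma 3 for the heavy chain, all of whose genes stood at -0.32 there. The difference between loci was not tested.

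A list of 20 genes was read for copy number, which held genes of V(D)J recombination and of the receptor complex, and the flanking gene Dad1. Of these, 3 were lower in thymic lymphomas than in sarcomas and 0 higher, a share below the 35.1% of all genes that were lower. They were Dntt, which adds bases without a template at the joins (difference -0.24, adjusted p = 0.00354), and the end-joining genes Xrcc4 (-0.33, adjusted p = 0.00143) and Lig4 (-0.16, adjusted p = 0.0101). Relative to their own chromosome none of these 3 passed, while Paxx and Cd247 were higher by 0.02 and 0.01 (adjusted p = 0.0258 and 0.0208), as were 1.57% of all genes. Rag1 and Rag2, which encode the recombinase, had a difference of -0.04 and were lost in 0 of 14 thymic lymphomas, and none of the 20 passed the test between AD and RP tumours of either type.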

How the data were processed

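Whole-exome DNA of 24 tumours was analysed from 1 deposited table of copy segments per tumour. Tools in the submitters' processing notes are GATK 4.1.0.0, BWA 0.7.17 and Trim Galore 0.6.5, with GRCm38 as the build; no order is stated. The deposited columns, per the file headers, hold segment positions, marker numbers and segment means, and the authors' segment means were read as log2 ratios, base 2 being the common use. How segments were made and centred, which DNA served for comparison and whether normal cells were corrected for is not given in the sources used here. Reads were 150 nt, per the labels, and the read depth is unknown, so no interval based on counts is given.

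Gene positions came from the RefSeq table of GRCm38.p6. In each tumour, 183 to 202 gene segments were overlapped by a copy segment and the others took the nearest. The members and lists were chosen with earlier results of these data known. Of the recombination list, 1 gene is not reported here. Named were the outermost V and J segments, all delta segments, Trac, the V and J segments with the lowest means, the flanking genes and those at segment ends. Two-sided permutation tests ran over all autosomal genes: 100000 resamples within genotype for tumour type (smallest p 1e-05), and all 3432 or 252 splits between genotypes (smallest p 0.000583 and 0.00794). Benjamini-Hochberg adjustment covered all 47038 genes, with a threshold of 0.05. The tests were tried on simulated data. Alternatives were limma 3.58.1 (lmFit, eBayes; R 4.3.3), other cutoffs, other centring, segments of at least 5 markers and leaving out tumours. Python 3.11.15, numpy 2.4.6, pandas 2.3.3, scipy 1.17.1 and matplotlib 3.10.9 were used. The labels give a separate animal number for each tumour and say no more of the replicates.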

Additional observations from a re-analysis of the deposited data

Results flagged for a closer look

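In 12 of 128 sets of 5 or 7 tumours, 1 tumour stood apart from the others of its group. Chance alone gives about 1 in 20 only for continuous, normally spread values. A value that differs alone from otherwise equal ones, as in AD sarcoma 5, is always flagged. The sets also share copy segments and are not independent, so the 12 cannot be set against a chance rate. RP sarcoma 1 was higher than the other RP sarcomas over the 45 V segments nearest the 5′ end (0.17; next 0.03), over the middle 45 V segments (0.19), over all 202 gene segments (0.17), and at Trav1 and Olfr1510 (0.1739 each). Its chromosome 14 stood at 0.15 outside the locus.

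AD sarcoma 5 stood apart in the number of gene segments lost, 9 as deposited and 9 relative to chromosome 14, against 0 in the other AD sarcomas. Its lost length was 26.634 kb, its lowest log2 ratio -0.835 and its number of levels 2, all from the copy segment with 2 markers.

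AD thymic lymphoma 2 had a mean of -0.31 over the 45 V segments nearest Trdd1, where the next AD thymic lymphoma had -2.26. AD thymic lymphoma 5 had 2 levels, where the next had 4.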

How the results depend on the processing

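No paired analysis between tumour groups was possible because the labels give each tumour its own animal number. Of the count and group summaries, 184 alternative values stayed within 1 SD of the main one, or within 1.5 times for counts called, and 2 did not. The count of gene segments lower in thymic lymphomas fell from 140 to 80 with values relative to the gene's own chromosome, and it was 156 with limma, 103 relative to the autosomal median and 108 to 154 when a tumour was left out. With at least 5 markers per segment, RP sarcomas had 1 level each on average, against 1.60. The counts between AD and RP tumours were 0 in every alternative run. Genotype means of gene segments lost ran from 129.5 to 157.5 in AD and from 100.3 to 121.5 in RP thymic lymphomas when a tumour was left out, and from 0 to 2.25 in AD sarcomas, with 0 throughout in RP sarcomas. The AD sarcoma means of 1.80 gene segments and 5.33 kb lost came from AD sarcoma 5 alone and were 0 without it, a change within their SD.

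Among named gene segments, 1029 alternatives kept the direction and 87 did not, and none of the 87 involved a called difference. Relative to chromosome 14, AD minus RP sarcomas gave -0.0185 for Trav1 and Olfr1510 and -0.00256 for Trav23, all Trdv, Trdd, Trdj and Trdc segments, Traj61, Traj1, Trac and Dad1, and thymic lymphomas minus sarcomas gave -0.00753 for Traj1, Trac and Dad1. AD minus RP thymic lymphomas turned to 0.14 for Trdv1 relative to chromosome 14. Leaving out 1 tumour gave -0.64 to 0.10 for Trdv1, -0.17 to 0.47 for Trdv2-1 and -0.15 to 0.31 for Trdv4, Trdd1, Trdd2, Trdj1, Trdj2, Trdc and Trdv5. For those last 7, leaving out AD thymic lymphomas 6 and 7 together, chosen after seeing the data, gave -0.18. The cause was not tested. The unknown read depth, the spacing of the markers and the unknown share of normal cells limit how finely ends and levels can be read.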
